A study of Homo sapiens with 3 samples.

Results

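MATR3 (matrin 3) is an abundant RNA-binding protein of the inner nuclear matrix that carries tandem RNA-recognition motifs and zinc fingers. It is known for binding pyrimidine-rich RNA, mostly in introns, and for affecting the splicing of nearby exons. PAR-CLIP, short for photoactivatable ribonucleoside-enhanced crosslinking with immunoprecipitation, feeds cells a photoreactive uridine analogue, crosslinks protein to RNA with long-wave ultraviolet light and sequences the RNA that the antibody recovers. A crosslinked uridine is read as C in place of T, so T-to-C changes mark contact points, and a stretch of overlapping reads with such changes is called a cluster. The clusters described here are the MATR3 clusters that the deposited tables annotate as coding, that is, inside protein-coding sequence of messenger RNA, outside the mitochondrial chromosome. They were taken by that label alone, from each replicate separately, and number 2017, 2368 and 2274 in replicates 1, 2 and 3, which makes 6659 of 388807 clusters in all.

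The study made PAR-CLIP libraries with an antibody against MATR3 from untreated wild-type HEK293, an established cell line derived from human embryonic kidney. There were 3 biological replicates and they form a single group: no control antibody, input or MATR3-deficient library was analysed here. Comparisons were therefore made within each replicate, between classes of clusters or between clusters and the coding sequence of the same genes. Each was tested with an exact two-sided sign-flip permutation test over the 3 within-replicate differences. The smallest p-value this test can give is 0.25 with 3 replicates, so none of the 14 comparisons could pass 0.05. A difference is therefore described by its size, its SD over replicates and the number of replicates that show its direction. Neither RNA abundance nor total library depth is given in the tables, so a gene with many clusters and a gene with much RNA cannot be told apart. Of the 6 genes used as markers of HEK293 cells, PAX2 had 1 nuclear cluster in replicates 2 and 3, LHX1 and INA had 1 in replicate 2, and SOX2, NEFM and NEFL had 0. None of the 8 marker genes of leukocytes, liver, erythroid cells or fibroblasts had a cluster in any replicate.

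Coding clusters were a small class, at 1.72% ± 0.174 of nuclear clusters and 1.69% ± 0.174 of their reads (SD, n = 3). Intron clusters made up 72.6% ± 0.100 of nuclear clusters (SD, n = 3). Coding clusters held 24404, 26345 and 27417 reads in replicates 1, 2 and 3, of which 7946, 10861 and 9167 were distinct reads. They lay in 1449, 1636 and 1592 genes. The median coding cluster had 9 reads and 3 distinct reads in each replicate, and 33.6% ± 5.90 had at most 2 distinct reads (SD, n = 3). Single clusters are thus thinly supported. Molecular identifiers were not used here, and there were 2.83 ± 0.352 reads per distinct read (SD, n = 3). Read counts can therefore include copies of one molecule.

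The sequences below are shown because they are places on messenger RNA where coding clusters of all 3 replicates share bases. There were 38 such shared stretches, in 32 genes, and the sequences are those of some of the 12 whose clusters had most reads. Each is on hg38 and runs 5′ to 3′ along the RNA. Capitals mark the bases covered by a cluster in every replicate, and lower case gives up to 40 flanking bases within the reach of any of the 3 clusters.

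PPP1R15B, chr1:204410694-204410787, minus strand: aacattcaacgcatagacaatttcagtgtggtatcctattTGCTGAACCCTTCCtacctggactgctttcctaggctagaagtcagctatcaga

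ANAPC7, chr12:110403543-110403623, minus strand: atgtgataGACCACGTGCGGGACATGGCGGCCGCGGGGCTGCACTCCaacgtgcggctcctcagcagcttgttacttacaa

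HSPA5, chr9:125238614-125238736, minus strand: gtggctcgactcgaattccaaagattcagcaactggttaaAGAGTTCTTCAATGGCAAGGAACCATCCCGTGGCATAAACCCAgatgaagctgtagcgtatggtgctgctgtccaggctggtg

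MEX3B, chr15:82043744-82043840, minus strand: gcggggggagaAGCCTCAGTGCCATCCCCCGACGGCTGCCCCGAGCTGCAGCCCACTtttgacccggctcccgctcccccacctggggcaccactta

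INTS5, chr11:62649482-62649597, minus strand: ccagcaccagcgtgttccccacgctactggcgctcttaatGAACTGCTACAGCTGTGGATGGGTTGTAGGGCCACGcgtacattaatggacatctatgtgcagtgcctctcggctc

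DDX39B, chr6:31540355-31540466, minus strand: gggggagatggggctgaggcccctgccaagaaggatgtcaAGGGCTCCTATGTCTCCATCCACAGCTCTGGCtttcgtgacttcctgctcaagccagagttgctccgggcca

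HIST1H2BO, chr6:27893618-27893709, plus strand: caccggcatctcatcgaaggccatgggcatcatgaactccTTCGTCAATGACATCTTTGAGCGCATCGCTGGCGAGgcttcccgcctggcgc

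YY1AP1, chr1:155660069-155660158, minus strand: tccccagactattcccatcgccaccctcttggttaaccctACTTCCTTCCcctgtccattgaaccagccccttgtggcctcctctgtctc

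The stretch whose clusters had most reads lay in the 1920-nt coding exon of PPP1R15B. This gene encodes a regulatory subunit of protein phosphatase 1 that directs dephosphorylation of the translation factor eIF2α. Its clusters held 88, 58 and 97 reads in replicates 1, 2 and 3, and 78.4%, 81.0% and 76.3% of those reads carried T-to-C. The 3 clusters met in 14 nt only, because the cluster of replicate 2 began where the other two ended. In ANAPC7, a subunit of the anaphase-promoting complex, clusters of 42, 39 and 30 reads shared 39 nt of a 101-nt first coding exon. In HSPA5, the endoplasmic reticulum chaperone BiP, clusters of 34, 21 and 49 reads shared 43 nt of a 238-nt exon, and the share of T-to-C reads was 82.4%, 81.0% and 81.6%. In MEX3B, an RNA-binding protein with KH domains, clusters of 37, 39 and 20 reads shared 46 nt of a 1451-nt exon. In each of these 3 genes every replicate's cluster had at least 20 reads, counted over the whole cluster and not over the shared bases alone. Distinct reads were fewer, at 15, 19 and 14 in ANAPC7, 11, 9 and 17 in HSPA5, and 13, 20 and 7 in MEX3B.

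INTS5 is a subunit of the Integrator complex that processes small nuclear RNA and attenuates transcription. Its clusters of 21, 54 and 23 reads shared 36 nt of its 2977-nt exon. In DDX39B, a helicase of messenger RNA export, clusters of 42, 39 and 15 reads shared 32 nt. HIST1H2BO, which encodes a histone H2B, had clusters of 31, 49 and 13 reads that shared 36 nt. Its coding sequence is near-identical to that of other H2B genes, so the assignment of reads to this copy is uncertain. YY1AP1, a protein known to bind the transcription factor YY1, had clusters of 17, 20 and 20 reads that met in 10 nt. Distinct reads of these clusters were 5, 24 and 8 in INTS5 and 19, 16 and 4 in DDX39B. They were 11, 19 and 4 in HIST1H2BO and 9, 8 and 5 in YY1AP1. The other members of the leading 12 were in NSUN4, BCL2L2, and a second place each in PPP1R15B and INTS5, whose clusters partly belong to the stretches already named. The NSUN4 clusters met in 1 nt. Over the 38 stretches the median shared length was 31.5 nt, 10 lay in coding exons of at least 1000 nt, and 7 held the pentamer ATCTT somewhere in the joined clusters. The 10 include a 1956-nt exon of another isoform in NSUN4 and both places in PPP1R15B and in INTS5. Of all clusters inside canonical coding exons, 19.7% ± 0.563 lay in exons of at least 1000 nt (SD, n = 3), which is not a like set. Single coding clusters held ATCTT in 4.97% ± 0.322 (SD, n = 3). Their median length was 38.0 nt, against 113.5 nt for the joined clusters, so the count of 7 has no like reference.

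The labelled class was checked against the GENCODE release 44 gene models on hg38. Every cluster sequence equalled the genome at its coordinates without a gap, so none of these clusters, as deposited, spans a splice junction. Of the coding clusters, 94.7% ± 0.619 lay wholly inside coding exons of the canonical transcript of a gene (SD, n = 3). A further 4.21% ± 0.678 lay in coding exons of another isoform, and these numbered 100, 86 and 92 in replicates 1, 2 and 3. Of these, 81, 67 and 69 fell within an intron of the canonical transcript. A canonical coding exon held part of 8, 8 and 9 clusters, and 10, 16 and 24 clusters met no coding exon of that release. Clusters that run across a coding exon border have labels of their own in the tables and are not members. They averaged 514 from exon into intron and 673 from intron into exon per replicate, and clusters over a start codon averaged 179 and over a stop codon 265.

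Some coding clusters had other MATR3 clusters close by, and no reference was computed for these shares. An intron cluster of the same replicate and strand lay within 200 nt of 9.82% ± 0.404 of them and within 1000 nt of 39.1% ± 1.15 (SD, n = 3). Another coding cluster lay within 200 nt of 15.6% ± 1.11 and within 1000 nt of 27.3% ± 1.49. A 3′ UTR cluster lay within 1000 nt of 12.2% ± 0.276.

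T-to-C changes were denser per T in coding clusters than in intron or 3′ UTR clusters, while the share of reads with a change was lower than in introns. Of all T positions covered by reads in coding clusters, 13.6%, 14.3% and 14.2% were read as C in replicates 1, 2 and 3. Intron clusters had 10.5%, 11.1% and 11.2%, and 3′ UTR clusters 10.1%, 10.7% and 10.5%. Coding values were above both other classes in every replicate and did not overlap them. The difference was 3.09 percentage points ± 0.0931 from introns and 3.58 ± 0.0613 from 3′ UTRs (SD, n = 3, higher in 3 of 3 replicates each). The exact sign-flip p was 0.25 for both, or 0.292 after Benjamini-Hochberg adjustment over the 14 comparisons. Among clusters of 20 to 49 reads the differences were 1.72 ± 0.622 and 2.22 ± 0.646 (SD, n = 3). In 5′ UTR clusters the value was 13.2% ± 0.515, between coding and intron clusters (SD, n = 3). Clusters over a start codon, a small class, had 14.2% ± 0.137 and 6.51 ± 0.209 T positions per read (SD, n = 3), so the coding values are not the most extreme of all classes.

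Reads of coding clusters also covered fewer T. A read covered 6.71 ± 0.271 T positions in coding clusters, 9.48 ± 0.460 within introns and 8.77 ± 0.416 within 3′ UTRs (SD, n = 3). Conversion events per read were 0.940 ± 0.0154 in coding, 1.03 ± 0.0214 in intron and 0.914 ± 0.0126 in 3′ UTR clusters. Counted per read, coding clusters were thus below introns, and their higher rate per T went with fewer T per read. At least 1 T-to-C change was present in 82.6%, 81.1% and 80.5% of reads in coding clusters, and in 87.6%, 86.8% and 88.0% in intron clusters. Coding clusters were lower by 6.07 percentage points ± 1.27 (SD, n = 3, lower in 3 of 3 replicates, exact sign-flip p = 0.25). Among clusters of 20 to 49 reads the difference was -11.4 ± 3.44, and by the median over clusters it was -2.22 ± 3.85 (exact sign-flip p = 1). Every read carried a change in 53.3%, 48.4% and 54.8% of coding clusters and in 59.6%, 57.5% and 61.6% of intron clusters. In replicates 1 and 3 both medians were thus at the upper limit of the measure and could not differ. Against 3′ UTR clusters, coding clusters were higher by 3.09 points ± 0.322 (SD, n = 3, 3 of 3 replicates, exact sign-flip p = 0.25). This was 1.51 ± 1.12 among clusters of at least 10 reads and 6.71 ± 3.0 with the median over clusters. Among clusters of 20 to 49 reads coding clusters were lower by 2.30 ± 2.75, without a common direction (SD, n = 3, exact sign-flip p = 0.50). Every deposited cluster had at least 4 reads with T-to-C and at least 2 converted positions, whatever its T content, and the part of these limits in the differences was not tested.

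The rate per T was highest in clusters with the fewest reads in all 3 classes, and it was higher in coding than in intron clusters in each range of reads examined. It was 19.3% ± 0.738 in coding clusters of 4 or 5 reads against 13.8% ± 0.568 in intron clusters, and 12.02% ± 0.646 against 10.2% ± 0.499 in those of 50 or more (SD, n = 3). Because each cluster needs at least 4 reads with T-to-C, nearly every read of a cluster of 4 or 5 reads must carry a change. The share of such reads there was 98.3% ± 0.457 in coding and 98.9% ± 0.302 in intron clusters (SD, n = 3). Some of the rise at low depth is thus built into the tables. The median length was 38.0 nt ± 1.73 in coding and 38.7 nt ± 1.53 in intron clusters, equal in replicate 1 and 1 nt shorter for coding clusters of the other two (exact sign-flip p = 0.50). The mean log2 of reads per cluster differed by 0.01 ± 0.01 (SD, n = 3, exact sign-flip p = 0.25), and among clusters of at least 10 reads this difference turned to -0.0045. Coding clusters were shorter by 4.33 nt ± 1.53 among those of at least 10 reads and by 16 nt ± 1 among those of 20 to 49 reads (SD, n = 3, 3 of 3 replicates each). Over all clusters the classes were thus close in length, but at higher depth coding clusters were shorter.

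**Figure D1:**
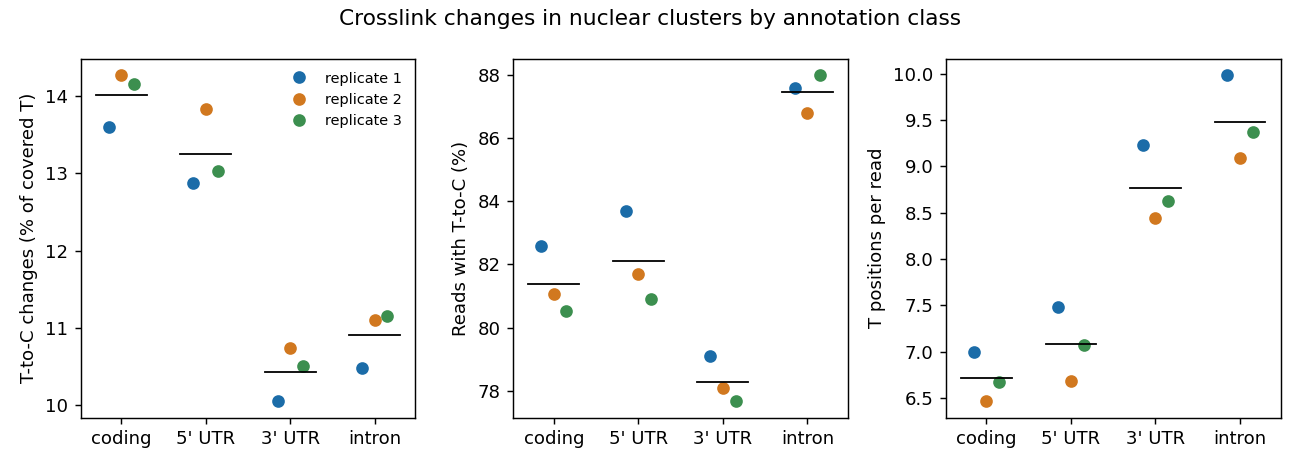
T-to-C changes as a percentage of covered T (left), percentage of reads with a change (middle) and T positions per read (right) in nuclear clusters of 4 classes; points are the 3 replicates, lines their means, and the axes do not start at 0. Coding clusters have the highest rate per T (14.01%) and the fewest T per read (6.71) of the 4 classes drawn; clusters over a start codon, not drawn, had 14.2% and 6.51.

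Within coding sequence, MATR3 clusters were richer in C and poorer in A than the coding sequence of the same genes, with a smaller excess of T. Clusters inside coding exons held 31.0% C against 28.0% in the coding sequence of their genes, 2.98 points more ± 0.158 (SD, n = 3). A made up 19.2% against 23.4%, 4.24 points less, with per-replicate differences of -4.44, -4.10 and -4.18. T made up 22.5%, 21.9% and 23.2% of clusters in replicates 1, 2 and 3 and 21.3%, 21.0% and 21.2% of the coding sequence. The excess of T was 1.34 points ± 0.542 (SD, n = 3, higher in 3 of 3, exact sign-flip p = 0.25). G differed by -0.08 ± 0.461, with a different sign in replicate 3 than in the others. GC content was higher by 2.90 points ± 0.566 (SD, n = 3, 3 of 3 replicates, exact sign-flip p = 0.25). The limits of the tables require converted T in each cluster, so some excess of T is built into this comparison, and its size was not tested. All coding clusters together held 22.7% ± 0.627 T, against 31.9% ± 0.883 in introns and 29.6% ± 0.693 for the 3′ UTR (SD, n = 3). T made up 23.7% ± 0.887 of 5′ UTR clusters and 21.1% ± 1.25 of clusters over a start codon (SD, n = 3).

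The pentamers with the highest density in clusters, relative to the coding sequence of the same genes, were runs of C and T. TCTTC led, at 3.47 per 1000 positions in clusters and 1.97 in the coding sequence. The log2 ratio was 0.89, 0.59 and 0.94 in replicates 1, 2 and 3. CTCTT followed at 0.74 ± 0.16, TTCTT at 0.73 ± 0.25, CTTTC at 0.71 ± 0.15 and CTTCT at 0.68 ± 0.12 (log2 ratio, SD, n = 3). Then came GTCTC at 0.66, CTTCC at 0.66 and TTCTC at 0.65. The 3 replicates placed each of these above 0. Among the 247 pentamers seen at least 100 times in clusters of every replicate, 29 are made of C and T alone, and 26 of these were among the leading 50. Of the leading 50, 44 had no A and 38 had 2 or more T, against 123 and 72 of all 247.

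Purine-rich pentamers stood at the other end, a composition that is known from exonic splicing enhancers. AGAAG was lowest, with log2 ratios of -0.90, -0.82 and -1.12. CCAAG at -0.51 ± 0.04, GAAGC at -0.49 ± 0.07, CACAG at -0.48 ± 0.13, GGAAG at -0.48 ± 0.04 and GAGGA at -0.45 ± 0.15 were the next (SD, n = 3). Of the last 50, 31 had no T, against 85 of all 247. The rule that a cluster holds converted T bears on pentamers without T, and its part was not tested.

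Counted as presence on the RNA strand, TCTTC occurred in 12.1%, 10.7% and 12.3% of clusters inside coding exons. It occurred in 7.21%, 7.44% and 7.02% of all windows of the same lengths in the coding exons of the same genes. AGAAG occurred in 5.91% ± 1.08 of clusters and 10.3% ± 0.748 of such windows (SD, n = 3). Both differences had the same sign in every replicate. The clusters shown next are, for each replicate, the one of at most 150 nt with most copies of TCTTC, chosen after values were seen and printed to show the kind of sequence behind these counts. Capitals mark TCTTC, overlapping copies included.

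CHD9, replicate 1, chr16:53304497-53304571, plus strand: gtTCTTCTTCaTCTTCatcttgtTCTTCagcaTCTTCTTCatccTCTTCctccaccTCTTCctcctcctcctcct

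MFSD5, replicate 2, chr12:53253613-53253699, plus strand: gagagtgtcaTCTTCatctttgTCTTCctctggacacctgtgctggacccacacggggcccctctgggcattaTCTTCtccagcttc

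SLC4A7, replicate 3, chr3:27431551-27431591, minus strand: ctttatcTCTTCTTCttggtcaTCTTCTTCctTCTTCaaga

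The CHD9 cluster, in a gene for a chromodomain helicase, held 8 copies in 75 nt and had 13 reads. The MFSD5 cluster, in a gene for a molybdate transporter, held 3 copies in 87 nt and had 38 reads. The SLC4A7 cluster, in a gene for a sodium bicarbonate transporter, held 5 copies in 41 nt and had 20 reads.

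ATCTT is how sequencing reads show AUCUU, a motif that MATR3 is known to prefer. It was also denser in coding clusters than in the coding sequence of the same genes, though less so than the C and T runs. It occurred 104, 112 and 114 times in replicates 1, 2 and 3, or 1.28 ± 0.131 per 1000 positions against 0.913 ± 0.0231 in the coding sequence (SD, n = 3). The log2 ratio was 0.53, 0.34 and 0.56, with a mean of 0.48 ± 0.12 (SD, n = 3; positive in 3 of 3 libraries; exact sign-flip p = 0.25). Against genomic sequence 200 nt away on either side, the ratio was 0.29 ± 0.23 (SD, n = 3). These flanks were not limited to coding exons and can lie in introns or UTRs, so they are an unlike reference. ATCTT ranked first of the 20 orderings of its own bases and 50 among all 1024 pentamers. The motif was present in 5.002% ± 0.282 of clusters inside coding exons and in 3.57% ± 0.136 of windows of the same length (SD, n = 3). In intron clusters, whose base composition differs, it was present in 9.69% ± 0.364, and among those of the 3′ UTR in 8.20% ± 0.698. The motif was present in 4.89% ± 0.534 of 5′ UTR clusters and 3.38% ± 1.75 of clusters over a start codon (SD, n = 3), so a low share is not particular to coding clusters. Most coding clusters therefore do not contain it.

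Along the coding sequence, clusters were slightly more frequent near both ends than in the middle. With the coding sequence cut into 10 equal parts, part 1 held 11.3%, 11.2% and 11.3% of clusters in replicates 1, 2 and 3, and part 10 held 11.6%, 10.7% and 10.6%. Parts 4 to 7 averaged between 9.02% and 9.12% each. Parts 9 and 10 together held 22.0%, 20.2% and 21.7%, which is 1.31 points above an even spread ± 0.955 (SD, n = 3, higher in 3 of 3, exact sign-flip p = 0.25). In replicate 2 the excess was 0.21 points. The excess was 2.77 ± 1.70 among clusters of at least 10 reads, and weighted by reads it was 1.70 ± 1.78, without a common direction (SD, n = 3, exact sign-flip p = 0.50). Clusters over the start or stop codon are not counted here.

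The last coding exon held 28.0% ± 0.718 of clusters and 25.5% ± 0.921 of the coding bases of the same genes. The difference was 2.49 points ± 0.346 (SD, n = 3, higher in 3 of 3, exact sign-flip p = 0.25), and 4.17 ± 0.637 among clusters of at least 10 reads. Since a cluster that crosses a border is not in the class, long exons have more room for members than their bases alone give. Against all windows of cluster length that fit in the exons, the last exon was above by 1.69 points ± 0.460 (SD, n = 3).

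Coding exons of at least 1000 nt held 19.7% ± 0.563 of clusters and 19.1% ± 0.726 of coding bases. This difference of 0.58 points ± 0.241 (SD, n = 3, 3 of 3 replicates, exact sign-flip p = 0.25) changed to -0.60 ± 0.253 against windows that fit, so its direction depends on the reference. Counted from 500 nt, long exons held 3.26 points ± 0.507 more of the clusters than of the coding bases (SD, n = 3), a comparison that does not use the windows. Exons of 1000 to 1999 nt held 13.3% ± 0.512 of clusters and 13.7% ± 0.605 of windows that fit (SD, n = 3). Exons of 2000 nt or more held 6.36% ± 0.124 and 6.60% ± 0.209. Exons of 500 to 999 nt held 13.9% ± 0.272 of clusters and 12.5% ± 0.0747 of such windows (SD, n = 3), a difference in the same direction in each replicate. Exons under 100 nt held 7.35% ± 0.696 of clusters and 7.57% ± 0.195 of windows. Coding sequence that lies within an intron of another coding isoform held 18.5% ± 0.652 of clusters and 16.5% ± 0.441 of coding bases, higher in 3 of 3 replicates. Such sequence need not be a whole skipped exon. In internal coding exons 48.2% ± 1.54 of clusters had their midpoint 5′ of the exon's middle (SD, n = 3), which was 49.95% in replicate 1 and below it in replicates 2 and 3.

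**Figure D2:**
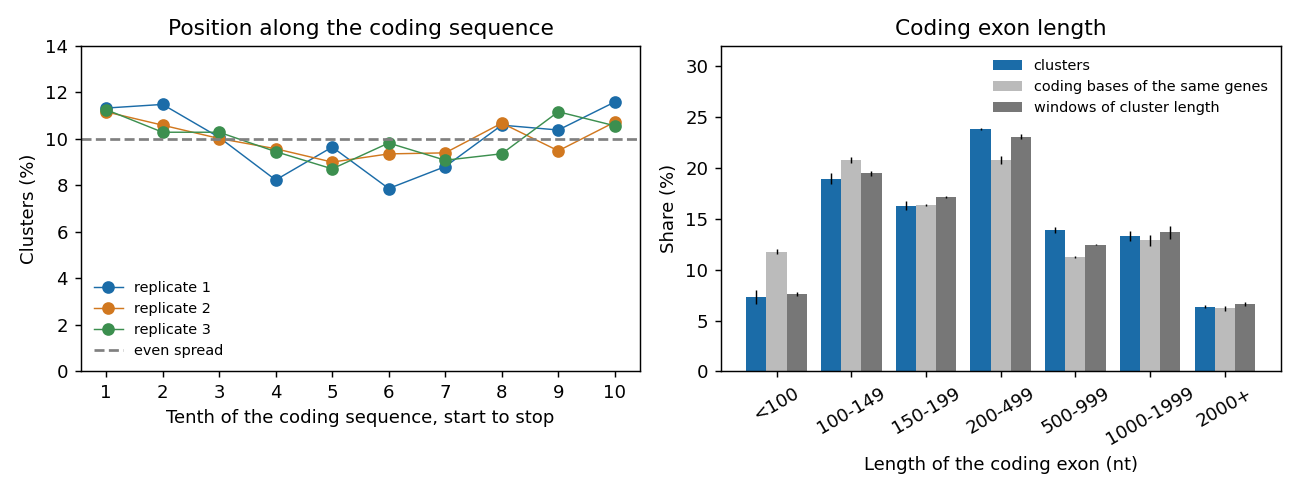
Left, percentage of coding clusters in each of 10 equal parts of the coding sequence for the 3 replicates, with a dashed line at an even spread. Right, percentage of clusters (mean of 3 replicates, bars SD) by coding exon length, beside the coding bases of the same genes and the windows of cluster length that fit in their exons; exons under 100 nt hold fewer clusters than bases but about as many as windows.

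Over all replicates 3149 genes had a coding cluster in any replicate, of 11150 genes with a nuclear cluster in an exon, intron or UTR class. Of the 3149, 1973 had coding clusters in 1 replicate, 824 in 2 and 352 in all 3. The 352 are 3.16% of the 11150. Intron clusters in all 3 replicates were present in 298 of the 352 genes, or 84.7%, and in 66.2% of the 11150. 3′ UTR clusters in all 3 were present in 128 of the 352, or 36.4%, and in 12.9% of the 11150. Abundant or long transcripts can give clusters in every class, and RNA level was not matched. No intron cluster was present in any replicate for 30 of the 352 genes. Gene read counts in coding clusters correlated weakly between replicates, with Spearman's rho of 0.327, 0.376 and 0.361 across 608, 610 and 662 genes shared by replicates 1 and 2, 1 and 3, and 2 and 3. These are correlations across genes, which are not independent replicates. The chi-square per degree of freedom was about 11 for each pair, a value that counts copies of one molecule as separate reads. The libraries were counted separately, as labelled biological replicates.

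The genes with most reads in coding clusters were led by NACA and SRRM2, and a single long exon held most of the clusters in several of them. Levels are given as reads in a gene's coding clusters per 1000000 reads in nuclear clusters (rpm), not per length, and were the values that chose the 25 genes named, so they are a description. The 25 genes together held 11.6%, 9.93% and 9.78% of coding reads in replicates 1, 2 and 3. A coding exon of at least 1000 nt is present in 18 of the 25, in 119 of the 352 genes and in 14.6% of all 19688 canonical coding transcripts. Ranking by summed reads favours long coding sequences.

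NACA, the alpha subunit of the nascent polypeptide-associated complex, had 213, 145 and 206 rpm in replicates 1, 2 and 3 (348, 216 and 311 reads). All 17 of its coding clusters lay in 1 exon of 5589 nt, chr12:56715871-56721459, minus strand, which encodes the large form of the protein known from muscle. That exon belongs to 1 of the 17 annotated coding transcripts of the gene and is skipped by 13. The best-covered cluster was a different one in each replicate. It spanned 394 nt with 289 reads in replicate 1, 320 nt with 88 reads in replicate 2 and 222 nt with 132 reads in replicate 3, and no base of the gene was shared by coding clusters of all 3. NACA had 6, 3 and 7 intron clusters and none in its 3′ UTR.

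SRRM2, a scaffold protein of nuclear speckles and spliceosomes, had 199, 130 and 209 rpm. Of its 29 coding clusters, 26 lay in an exon of 6701 nt. Reads with T-to-C were 54.0% in this gene, below the 81.4% of the class. The share was lower in clusters with more reads, at 69.0% ± 2.63 in coding clusters of 20 to 49 reads (SD, n = 3). A low share was not particular to SRRM2, with 53.7% in ACTB and 45.5% in TUBB, though HSPA5 had 84.9%. PPP1R15B had 118, 79.2 and 117 rpm, with 17 of 18 clusters in its 1920-nt exon. INTS5 had 95.5, 141 and 70.9 rpm, with all 23 clusters in its 2977-nt exon, and no intron cluster in any replicate. SRRM2, like NACA, had no base shared by coding clusters of all 3 replicates, whereas PPP1R15B and INTS5 each had such stretches.

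**Figure D3:**
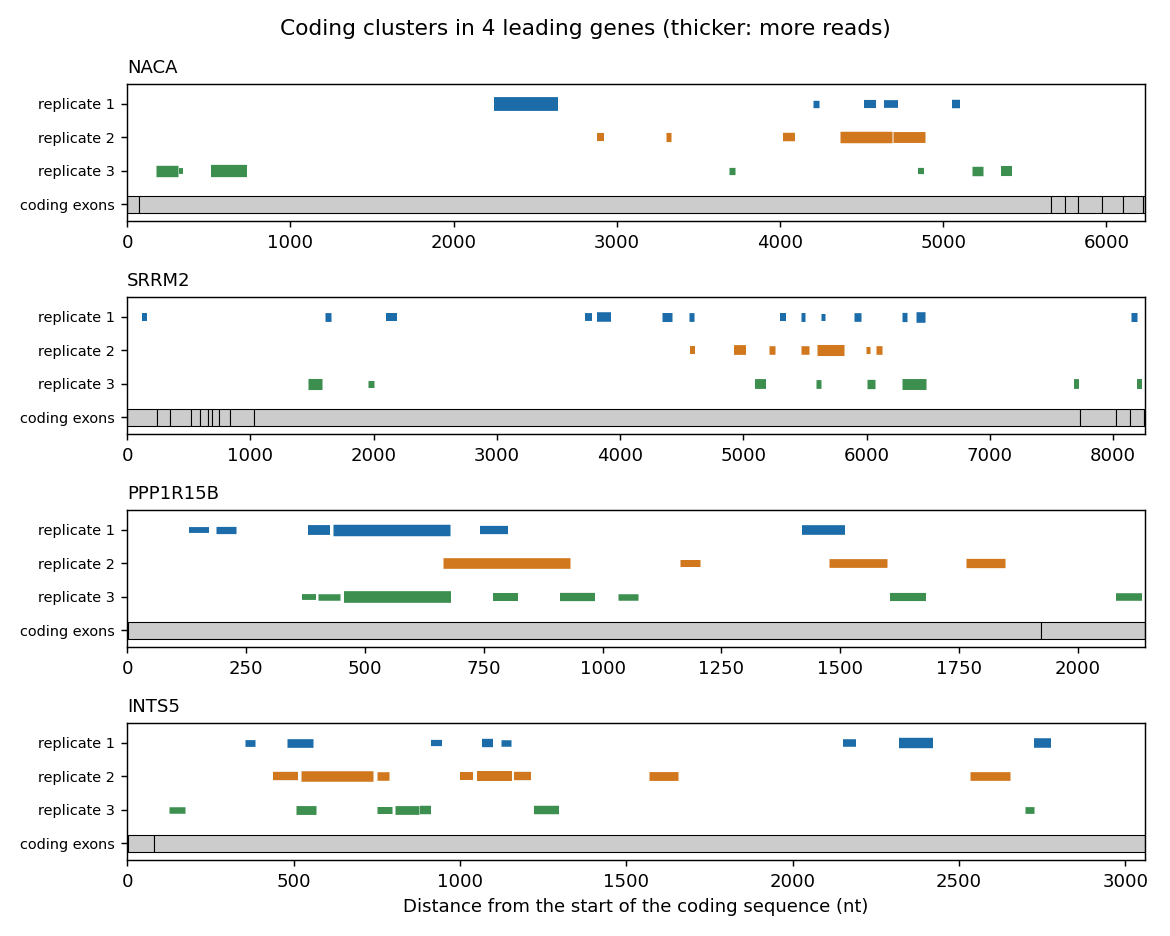
Coding clusters of NACA, SRRM2, PPP1R15B and INTS5 by distance from the start of the coding sequence (nt), one line per replicate, drawn thicker for more reads, above the coding exons of the canonical transcript (grey). Clusters lie mostly in the long exon of each gene and seldom at the same place in all 3 replicates.

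SRCAP, the catalytic subunit of a chromatin remodeller that deposits histone H2A.Z, had 50.2, 59.7 and 212 rpm, high in replicate 3. SLC1A5, a glutamine transporter, had 97.4, 117 and 14.6 rpm, low in replicate 3. Single genes can therefore be far apart between replicates. HSPA5 was even, with 55.1, 57.1 and 51.0 rpm, as was MEX3B, with 39.2, 44.3 and 37.8 rpm. C15orf39 had 126, 54.4 and 78.9 rpm, PPRC1, a transcriptional coactivator related to PGC-1, 52.0, 109 and 63.6, and MBD6, a methyl-CpG-binding domain protein, 42.9, 79.9 and 36.5.

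NSUN4, an RNA methyltransferase of mitochondrial ribosomes, had 126, 40.3 and 73.6 rpm, but 16 of its 19 clusters lay in a coding exon of another isoform, within an intron of the canonical transcript. TMPO, the lamina-associated polypeptide 2 gene, had 45.3, 47.0 and 30.5 rpm, and 8 of its 10 clusters lay in a 1517-nt exon of another isoform. WNK1, a kinase that regulates ion transport, had 92.5, 41.6 and 23.9 rpm with 8 of 15 clusters of this kind. For these 3 genes the label coding and the canonical transcript differ.

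ACTB, cytoplasmic beta-actin, had 33.7, 98.7 and 109 rpm, and TUT1, a terminal uridylyltransferase of U6 RNA, 33.1, 28.2 and 47.7. SF1, which recognises the branch point in splicing, had 40.4, 26.9 and 74.3 rpm. TRIM71, an RNA-binding ubiquitin ligase of stem cells, had 31.8, 43.0 and 57.7, and SLC30A1, a zinc exporter, 77.8, 30.9 and 32.5. ATXN1L, FZD7 and MFSD5 have their whole coding sequence in 1 exon, and had 43.4 ± 20.1, 40.8 ± 10.4 and 48.0 ± 43.9 rpm (SD, n = 3). FZD7 is a Wnt receptor and ATXN1L a relative of ataxin 1. PRDM2, a zinc finger methyltransferase, had 42.8 ± 22.0 rpm, and ARID1A, a subunit of the BAF chromatin remodeller, 47.0 ± 41.4 (SD, n = 3). ZNF460, a zinc finger protein, had 36.4 ± 9.28. In PRDM2, 12 of 13 clusters lay in an exon of 4414 nt. ARID1A had many more intron than coding clusters, at 64, 55 and 65 against 3, 5 and 3.

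Per 1000 nt of coding sequence the order changed. Among genes whose clusters lie in the canonical coding sequence, ACTB had the highest geometric mean level, at 63.4 rpm per 1000 nt, then HIST1H2BO at 49.6, PPP1R15B at 48.1 and HIST2H2BF at 37.7. NACA was at 29.7 and SRRM2 at 21.3. The actin and histone genes have near-identical relatives, so their counts are uncertain.

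**Figure D4:**
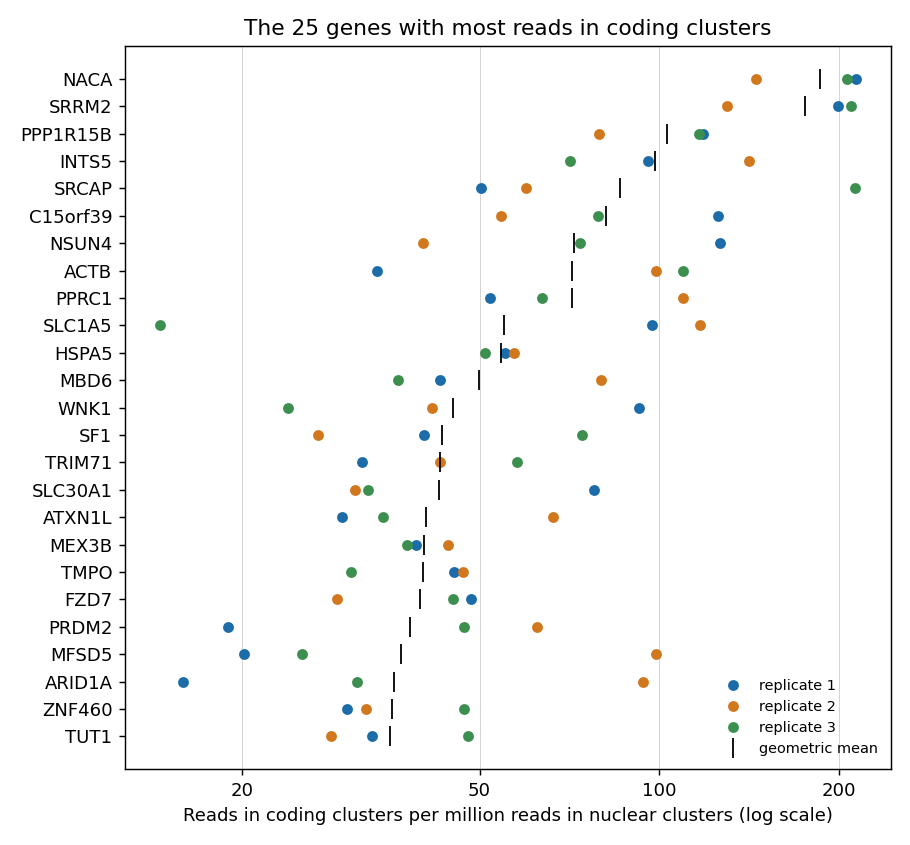
Reads in coding clusters per 1000000 reads in nuclear clusters (log axis) for the 25 genes with the highest geometric mean, with 1 point per replicate and a bar at the geometric mean. NACA and SRRM2 are above 129 in each replicate, and SRCAP and SLC1A5 show the wide spread between replicates.

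Gene groups were read from lists, as the number of genes with a coding cluster in all 3 replicates, beside 3.16% of all genes with a cluster. A coding cluster in some replicate was present in 28.2% of them. Expression and coding length were not matched. Of 31 nuclear RNA-binding proteins, 20 had a coding cluster in some replicate and 6 in all 3, among them SRRM2, SON, HNRNPF, PTBP1 and HNRNPH1. SON, a speckle protein, had 16.5, 25.5 and 47.7 rpm. HNRNPF, a splicing factor whose coding sequence is 1 exon, had 17.8, 10.1 and 39.8 rpm. PTBP1, a pyrimidine tract-binding protein and known partner of MATR3, had 12.1 ± 7.53 rpm (SD, n = 3).

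Of 30 chromatin regulators 25 had a coding cluster in some replicate and 5 in all 3, namely ARID1A, KMT2A, SETD5, EP400 and EP300. KMT2A, a histone H3 lysine methyltransferase, had 12.2, 10.7 and 34.5 rpm, and SETD5 16.3 ± 2.90 (SD, n = 3). Cytoskeletal genes had 3 of 20, ACTB, TUBB and ACTG1, all of them members of families with near-identical copies. TUBB, a beta-tubulin, had 14.7, 30.2 and 80.9 rpm, and ACTG1, gamma-actin, 98.0, 32.2 and 3.98. Translation factors had 3 of 29, EIF4G2, EEF1D and GCN1, of which EIF4G2, a scaffold of cap-independent initiation, had 12.2, 15.4 and 27.2 rpm.

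Large ubiquitin ligases and kinases had 2 of 16, HUWE1 with 48.98, 14.1 and 34.5 rpm and UBR4 with 16.5, 10.1 and 29.8. Genes of fatty acid and cholesterol synthesis had 2 of 19, among them ACLY, and genes of nuclear structure and mitosis 2 of 23, LMNB1 and CENPF. Chaperones had 1 of 24, HSPA5. Glycolytic enzymes had 0 of 17, and 9 of the 17 had a coding cluster in some replicate.

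Gene families by name, chosen after values were seen, are given as counts. Of 31 histone genes with any cluster, 27 had a coding cluster in some replicate and 2 in all 3, HIST1H2BO and HIST2H2BF. Intron clusters in all 3 replicates were present in 2 of these 31. Of 389 genes with ZNF names, 92 had one in some replicate, or 23.7%, and 7 in all 3, or 1.80%. The shares over all 11150 genes were 28.2% and 3.16%.

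MATR3 RNA itself, from chr5:139274104-139331671 on the plus strand, had coding clusters in replicates 1 and 3 and none in replicate 2. There were 3, 0 and 3 clusters with 63, 0 and 42 reads, all in its 912-nt coding exon. Its introns had 21, 23 and 29 clusters. The coding clusters thus recurred in 2 of 3 replicates and the intron clusters in each.

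Coding clusters were seldom found again at the same place, and how they compared with intron clusters depended on what counted as a match. A cluster counted as found when a nuclear cluster of any class in another replicate covered 1 nt or more of it on its strand, averaged over the other 2 replicates. This held for 12.2%, 10.03% and 11.3% of coding clusters of replicates 1, 2 and 3. It held for 11.8%, 11.8% and 12.4% of intron clusters. The difference of -0.84 points ± 1.09 was within the spread between replicates and had the other sign in replicate 1 (SD, n = 3, exact sign-flip p = 0.50). With the match required to be of the same class, coding clusters were lower by 2.46 points ± 0.894 in 3 of 3 replicates (SD, n = 3). Under that rule an overlapping cluster across an exon border or a start or stop codon carries another label and does not count. The part of these labels in the difference was not tested. When each cluster had to share 50% or more of its length with the other, coding clusters were lower by 0.43 ± 0.333, also in 3 of 3 (SD, n = 3). 3′ UTR clusters were found more often, at 13.6%, 13.4% and 13.1%, and coding clusters were lower by 2.21 points ± 0.991 (SD, n = 3, 3 of 3 replicates, exact sign-flip p = 0.25). This became 0.71 ± 1.5, without a common direction, among clusters of at least 10 reads (exact sign-flip p = 0.75), 0.98 with the 50% overlap and 3.73 with a match of the same class.

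In all, 79.9% ± 1.98 of coding clusters were found in neither of the other replicates, 17.9% ± 1.78 in 1 and 2.20% ± 0.201 in both (SD, n = 3). The median reads were 8.67, 12 and 15.3 and the median lengths 37.3, 44 and 57 nt for these 3 sets. Recurrence rose with depth, from 5.26% ± 1.58 in coding clusters of 4 or 5 reads to 37.9% ± 9.06 in those of 50 or more (SD, n = 3). Intron clusters rose from 6.06% ± 0.712 to 33.4% ± 9.12 over the same ranges, and the 50-read groups hold 23.0 coding clusters on average.

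**Figure D5:**
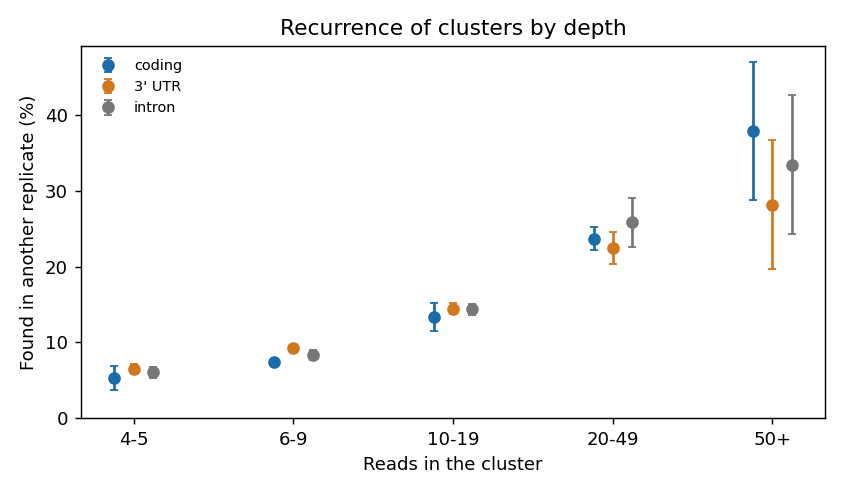
Percentage of clusters overlapped by a cluster of another replicate, by number of reads in the cluster, for coding, 3′ UTR and intron clusters; points are means and bars SD over 3 replicates. Recurrence rises with reads in all 3 classes, from 5.26% to 37.9% in coding clusters. The class means lie closer together below 50 reads than at 50 or more. There they are 37.9% ± 9.06 for coding, 33.4% ± 9.12 for intron and 28.1% ± 8.49 for 3′ UTR clusters.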

How the data were processed

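The deposited tables hold 1 row per PAR-CLIP cluster, called in each replicate separately. Per the file headers, read, distinct-read and conversion numbers are counts, and none was normalised. The deposited share of T-to-C reads is a fraction from 0 to 1, and the deposited specificity values are log10 and were not used in a comparison. The submitters' processing notes name hg38; aligner and cluster caller are not given in the sources used here. Each deposited cluster had at least 4 reads, 2 conversion locations and 20 nt. Read totals in clusters are not library depth.

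Members were rows labelled coding outside the mitochondrial chromosome. They and the lists were chosen with earlier results of these data known. Clusters were placed on GENCODE release 44 canonical coding exons. Rates were summed over clusters per replicate. Base and pentamer content was compared with the coding sequence of the same genes, weighted by cluster length. Tests were exact two-sided sign-flip permutation tests over replicates, 14 in all, with Benjamini-Hochberg adjustment (Python 3.11.15, pandas 2.3.3, NumPy 2.4.6, SciPy 1.17.1, pysam 0.24.0). Measures were tested on simulated data. Genes named were the 25 with the highest geometric mean rpm among those in all 3 replicates, the 12 leading shared stretches, MATR3, and up to 4 leading members per list, plus others chosen after values were seen. Alternatives are in the closing section. Some list members are not reported here.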

Additional observations from a re-analysis of the deposited data

Results flagged for a closer look

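Clusters annotated as coding on the mitochondrial chromosome, which are outside the nuclear class described above, numbered 13, 11 and 13 in replicates 1, 2 and 3. They held 8854, 15359 and 17553 reads, a mean of 13922 ± 4524 (SD, n = 3), or 26.6%, 36.8% and 39.0% of all reads in clusters annotated as coding. They stand out because a signal of this size lies in data that no comparison here used. There is no control library against which to set it.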

How the results depend on the processing

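No paired analysis was possible between groups, because there is 1 group; classes were compared within each replicate. Of 128 recomputed values, 116 kept their direction on average and stayed within the limits used for counts, though several changed in size by over 1.5 times or lost the common direction of the replicates. No test could pass 0.05 under any alternative, since the smallest p-value is 0.25, or 0.5 with a replicate left out, so only direction and size can be compared. The difference in log2 reads per cluster between coding and intron clusters changed sign to -0.0045 in clusters of at least 10 reads and to -0.014 in clusters of 20 to 49 reads. The difference in recurrence from introns became 0.24 points at a minimum of 10 reads in both replicates. T-to-C reads against 3′ UTR clusters became -2.30 points ± 2.75 in clusters of 20 to 49 reads, without a common direction (SD, n = 3). Long exons became -0.60 points against windows that fit inside exons. The ranges of 10 to 19 and 20 to 49 reads and the windows were chosen after seeing the data. The count of 352 genes with coding clusters in all 3 replicates fell to 146 with at least 10 reads per cluster, 232 with at least 3 distinct reads, 120 with at least 3 conversion locations and 77 with at least 2 clusters per gene. It rose to between 608 and 662 when a replicate was left out, since only the other two then count. The cause of these changes was not tested, except that fewer replicates or clusters enter the counts. Depth limits single clusters, which have a median of 3 distinct reads.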
